A study of Mus musculus with 10 samples.

Results

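The glucocorticoid and corticotropin-releasing hormone (CRH) stress-axis genes were 9 genes, chosen by symbol, of 24421 genes in the table. They were the steroid receptors Nr3c1 and Nr3c2, the receptor targets Fkbp5, Sgk1 and Tsc22d3, the steroid-reactivating enzyme Hsd11b1, and Crh, Crhbp and Crhr1 of the CRH system. All 9 passed the filter on low values, a mean of at least 0.5 CPM over the libraries, as did 15081 genes in all. Levels are in CPM, the reads of a gene for each 1000000 reads on genes in that library.

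The RNA came from the ventral hippocampus (vHpc) of female C57BL/6 mice, all ovariectomized (OVX) at 70 to 80 days of age and left to recover for 2 weeks. For 6 weeks they then drank water with 0.1% ethanol, either alone (vehicle) or with 300 nM β-estradiol (E2), about 0.7 μg per day. WT mice were compared with Het-Met mice, which carry the BDNF Val66Met knock-in on 1 allele (labelled BDNF Met/+), so that 1 copy of the gene for brain-derived neurotrophic factor carries the Met variant. WT mice gave 2 libraries and Het-Met mice 3 under each treatment, with 19820184 to 23267410 reads on genes per library. Each library was a pool of RNA from 2 animals, so the p-values measure the spread between such pools. Hippocampal markers were present, and Fibcd1, a marker of the CA1 field and the most abundant of the hippocampal list, was at 148 to 224 CPM in the 10 libraries.

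Corticosterone, the main glucocorticoid of mice, acts in the hippocampus through the high-affinity mineralocorticoid receptor (Nr3c2) and the lower-affinity glucocorticoid receptor (Nr3c1), which bind DNA as hormone-activated transcription factors. The hippocampus is known for restraining the hypothalamic release of CRH, the peptide that starts the hormonal stress response. Local hippocampal neurons also make CRH, which acts through the receptor CRHR1 and is held back by the binding protein CRHBP.

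No stress-axis gene passed the test in any comparison. The call required a Benjamini-Hochberg adjusted p under 0.05 over all 15081 genes and a fold change above 1.3, from limma on log2(CPM + 0.5). Calls were also rare among all genes, at 0.0133% of genes for E2 in WT mice, 0% for E2 in Het-Met mice, 0.00663% for Het-Met against WT mice under vehicle, 0.0265% under E2 and 0.0729% for the interaction, the difference between the E2 effects of the genotypes, and at 0.00663% and 0.0265% for the averages over genotypes and over treatments. At an unadjusted p under 0.05, 2 of the 9 genes were past the threshold for E2 in WT mice (4.04% of all genes), 1 for E2 in Het-Met mice (5.45%), 1 for Het-Met under vehicle (10.7%), 4 for Het-Met under E2 (11.7%) and 2 for the interaction (5.42%). For E2 averaged over the genotypes 1 of 9 was past it (3.22%), and for Het-Met against WT averaged over the treatments 3 of 9 were (16.6%). The differences of the 9 genes that follow are therefore described at unadjusted p, and none is a call over all libraries.

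**Figure D1:**
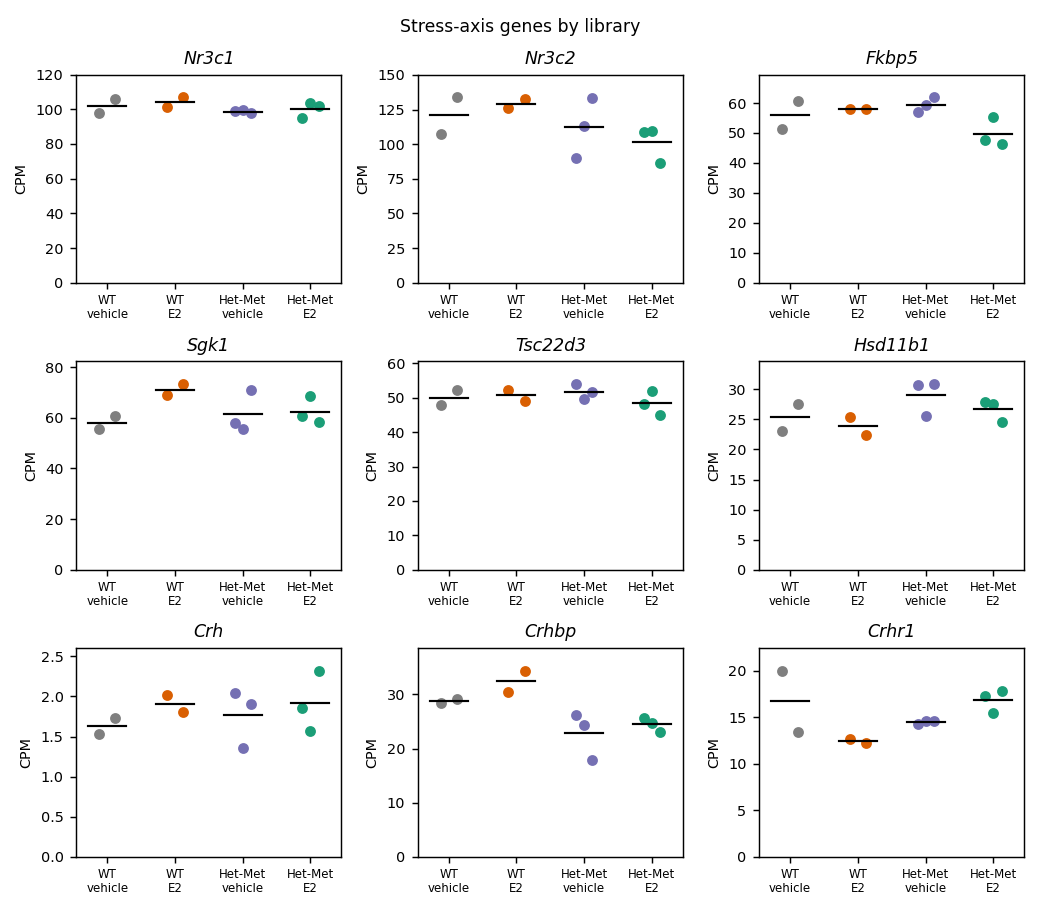
Level of each stress-axis gene in CPM (vertical axes, from 0) in the 10 libraries, grouped by genotype and treatment; points are libraries and lines are group means. Crhbp was lower in all 6 Het-Met libraries than in all 4 WT libraries, and Crhr1 in the E2-treated WT libraries lay below every other library. The share of all genes with either pattern was not computed.

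**Figure D2:**
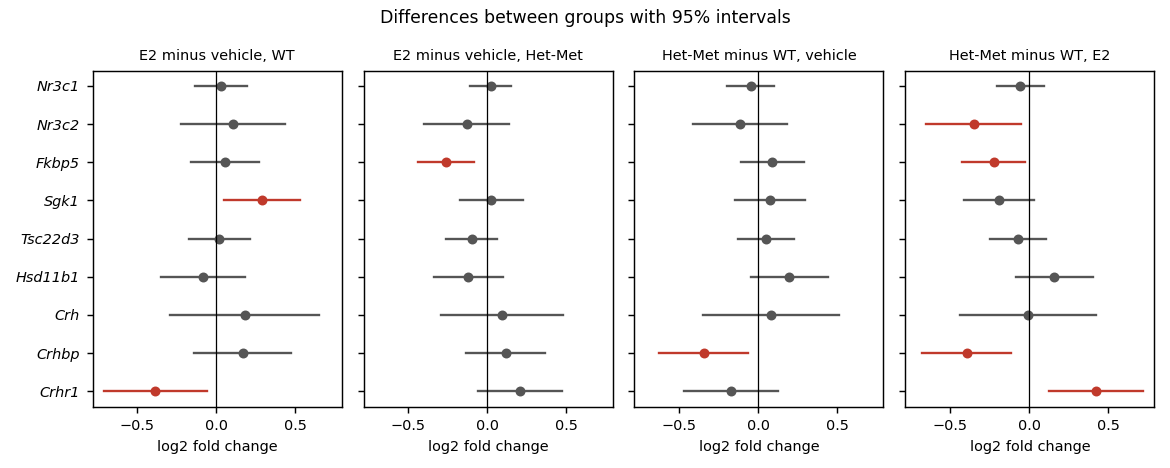
Log2 fold change of each stress-axis gene (points) with its 95% interval (lines) from limma, in 4 comparisons; red marks an unadjusted p under 0.05. Fkbp5 for E2 in Het-Met mice, Crhbp in both genotype comparisons and Crhr1 for E2 in WT mice are among the intervals that leave out 0.

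Levels of the 9 genes differed widely when divided by exon length, from 17.6 CPM per kb for Nr3c2 to 1.37 CPM per kb for Crh. After Nr3c2, the levels ran Crhbp (14.7 CPM per kb), Nr3c1 (13.1), Sgk1 (12.9), Tsc22d3 (11.6), Hsd11b1 (6.25), Crhr1 (6.19) and Fkbp5 (5.87). The library ranges of neighbouring genes overlapped except between Tsc22d3 (lowest library 10.4 CPM per kb) and Hsd11b1 (highest 7.28), and between Fkbp5 (lowest 4.88) and Crh (highest 1.76). In number of reads Crh was thin, with 27 to 49 reads per library, so its counting error alone was large.

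The glucocorticoid receptor gene Nr3c1 varied least. It was at 98.0 and 106 CPM in the vehicle-treated WT libraries, 101 and 107 CPM in the E2-treated WT libraries, 99.0, 99.3 and 97.6 CPM in the vehicle-treated Het-Met libraries, and 94.98, 104 and 102 CPM in the E2-treated Het-Met libraries. The highest library was only 1.13 times the lowest, and all groups overlapped. The log2 fold change for E2 was 0.03 in WT mice (95% interval -0.13 to 0.19) and 0.02 in Het-Met mice (-0.11 to 0.15), and for Het-Met against WT it was -0.05 under vehicle (-0.20 to 0.10) and -0.06 under E2 (-0.20 to 0.09). The within-group SD on the log2 scale was 0.06, against a median of 0.12 over all genes tested.

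Nr3c2, the mineralocorticoid receptor gene (chr8:76899442-77245012 on mm10, plus strand), spread more. Its levels were 107 and 134 CPM in vehicle-treated WT, 126 and 132 CPM in E2-treated WT, 90.4, 113 and 133 CPM in vehicle-treated Het-Met, and 109, 110 and 86.5 CPM in E2-treated Het-Met libraries. The E2-treated Het-Met libraries all lay below the E2-treated WT libraries, as for 14.7% of all genes (log2 fold change -0.35 ± 0.14 SE, unadjusted p = 0.0242, limma adjusted p = 0.379), while the vehicle-treated groups overlapped (-0.11 ± 0.14, adjusted p = 0.795). Without E2-treated Het-Met replicate 3, the lowest library, the difference under E2 was -0.24. It stayed past an unadjusted p of 0.05 in 7 of the 10 fits that left out a library, and was not past it by DESeq2. Every fit that lost it left out an E2-treated library, and leaving out a vehicle-treated library does not change this fold change. Averaged over treatments it was -0.23 ± 0.10 (unadjusted p = 0.0328, adjusted p = 0.258), and the exact permutation test within treatments gave p = 0.13. Without vehicle-treated WT replicate 3 the average was -0.15. The average stayed past an unadjusted p of 0.05 in 5 of the 10 fits that left out a library. It was not past that p with no filter or by DESeq2. A stretch of 247 bases, 3.82% of the exons of Nr3c2, also lies in the antisense gene Gm10649, and no other stress-axis gene shares exon bases with another annotated gene.

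The 3 receptor targets are textbook glucocorticoid-induced genes. FKBP5 is a co-chaperone that lowers the hormone affinity of the glucocorticoid receptor and so forms a short negative feedback loop, SGK1 is a kinase induced through both receptors that regulates ion channels, and Tsc22d3 encodes GILZ, a transcriptional regulator with anti-inflammatory action. The 250 bases before a transcription start are shown for each to let the receptor's letters be seen beside the values. Capitals mark a full match to the palindromic glucocorticoid response element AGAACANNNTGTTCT, searched on both strands.

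Sgk1, chr10:21993640-21993889, plus strand: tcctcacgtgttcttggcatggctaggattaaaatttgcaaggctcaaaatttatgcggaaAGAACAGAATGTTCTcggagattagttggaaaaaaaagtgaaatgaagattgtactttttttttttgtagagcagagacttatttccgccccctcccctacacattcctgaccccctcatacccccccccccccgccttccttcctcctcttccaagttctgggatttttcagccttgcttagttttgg

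Fkbp5, chr17:28486150-28486399, minus strand: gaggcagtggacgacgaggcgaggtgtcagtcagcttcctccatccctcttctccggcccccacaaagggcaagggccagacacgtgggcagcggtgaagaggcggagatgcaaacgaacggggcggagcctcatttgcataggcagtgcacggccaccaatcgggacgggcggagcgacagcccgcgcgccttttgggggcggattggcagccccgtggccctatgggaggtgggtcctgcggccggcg

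Tsc22d3, chrX:140600523-140600772, minus strand: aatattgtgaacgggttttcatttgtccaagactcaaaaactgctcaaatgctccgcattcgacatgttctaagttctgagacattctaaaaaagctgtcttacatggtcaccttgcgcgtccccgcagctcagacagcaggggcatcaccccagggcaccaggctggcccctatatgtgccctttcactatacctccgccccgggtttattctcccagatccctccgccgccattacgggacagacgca

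These sequences are RefSeq windows of build GRCm38.p6. The search covered 14 windows of 7 of the 9 genes. Nr3c1 and Crh had no window in the search, so their letters were not examined. Shares of all windows are over the 32544 windows searched, which do not take in every gene. The Sgk1 window carried the response element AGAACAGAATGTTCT, which began 189 bases before the start, and it was 1 of only 3 windows among 32544 (0.00922%) with a full match. The other 5 Sgk1 windows and the windows of Fkbp5 and Tsc22d3 had none. A single arm of the element, AGAACA on either strand, was present in 18.9% of all windows, among them that of Tsc22d3 shown here, 185 bases before its start. The estrogen response element GGTCANNNTGACC was in 0.0707% of all windows and in none of the 14, and the cyclic AMP response element TGACGTCA was in 1.8% and in none of the 14. A match is a description of the letters only.

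Fkbp5 was at lower values with E2 in Het-Met mice. It was at 57.1, 59.2 and 62.1 CPM in the vehicle-treated and at 47.7, 55.2 and 46.2 CPM in the E2-treated Het-Met libraries. The groups did not overlap, as for 5.11% of all genes with the E2 libraries lower (log2 fold change -0.26 ± 0.08, a fold of 0.835, unadjusted p = 0.00698, limma adjusted p = 0.748). In WT mice the vehicle libraries were at 51.3 and 60.8 CPM and the E2 libraries at 58.1 and 57.9 CPM, which overlapped (0.05 ± 0.10). The interaction was -0.31 ± 0.13 (unadjusted p = 0.0307, adjusted p = 0.818), and without vehicle-treated WT replicate 1 it was -0.19. It stayed past an unadjusted p of 0.05 in 4 of the 10 fits that left out a library. Under E2, all Het-Met libraries lay below both WT libraries, as for 14.7% of all genes (-0.22 ± 0.09, unadjusted p = 0.0289, adjusted p = 0.381), and the unadjusted p stayed under 0.05 in 6 of the 10 fits. Every fit that lost it left out an E2-treated library, and leaving out a vehicle-treated library does not change this fold change. The E2 difference in Het-Met mice stayed at an unadjusted p under 0.05 with each of the 10 libraries left out in turn, between -0.34 and -0.21. All 12 choroid plexus markers were also lower with E2 in Het-Met mice (median log2 fold change -1.18), 9 of them past an unadjusted p of 0.05 (5.45% of all genes), and their part in the Fkbp5 value was not tested.

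Sgk1 was at higher values with E2 in WT mice. The vehicle-treated WT libraries were at 55.6 and 60.8 CPM and the E2-treated WT libraries at 68.9 and 73.5 CPM, without overlap (log2 fold change 0.29 ± 0.11, a fold of 1.22, unadjusted p = 0.0216, limma adjusted p = 1.00). Non-overlap is common with 2 libraries a group, and 15.6% of all genes had both E2 libraries higher. The unadjusted p stayed under 0.05 in 8 of the 10 fits that left out a library. Every fit that lost it left out a WT library, and leaving out a Het-Met library does not change this fold change. In Het-Met mice the levels were 58.0, 55.5 and 71.1 CPM under vehicle and 60.6, 68.5 and 58.2 CPM under E2, with wide overlap (0.03 ± 0.09). The interaction was -0.26 ± 0.15 (unadjusted p = 0.0906, adjusted p = 0.997), so the E2 effects were not shown to differ between genotypes. The mean E2 effect over genotypes was 0.16 ± 0.07 (unadjusted p = 0.0471, adjusted p = 0.999), and the exact permutation test within genotypes gave p = 0.133. It stayed past an unadjusted p of 0.05 in 3 of the 10 fits that left out a library, and was not past it with no filter, with median-of-ratios, TMM or quantile scaling, or by edgeR or DESeq2. All 12 choroid plexus markers were also higher with E2 in WT mice (median log2 fold change 2.07), and their part in the Sgk1 value was not tested.

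Tsc22d3 stayed between 45.0 and 54.1 CPM in all libraries. Its levels were 47.8 and 52.3 CPM in vehicle-treated WT, 52.3 and 49.2 CPM in E2-treated WT, 54.1, 49.5 and 51.7 CPM in vehicle-treated Het-Met, and 48.2, 51.9 and 45.0 CPM in E2-treated Het-Met libraries. All groups overlapped, and the 4 pairwise log2 fold changes ran from -0.10 to 0.05. For E2 in Het-Met mice the 95% interval was -0.26 to 0.06, which left out a fold of 1.3 in either direction.

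A list of 30 other glucocorticoid-induced genes was set beside these targets, of which 29 passed the filter (all but Lcn2). None was called in any comparison over all libraries, and 1 was called for genotype over treatments without vehicle-treated Het-Met replicate 2. Averaged over treatments, 6 of 29 were past an unadjusted p of 0.05, all lower in Het-Met mice. Genes lower past that p were 7.27% of all genes. For E2 in WT mice 22 of 29 were higher, with a median log2 fold change of 0.04, and for E2 in Het-Met mice 12 of 29 were higher, with a median of -0.04; over all genes the medians were -0.003 and 0.004. Neither count was stable, with 16 of 29 higher in WT mice without vehicle-treated WT replicate 1 (median 0.02), and 15 of 29 higher in Het-Met mice without E2-treated Het-Met replicate 3 (median 0.02). Under vehicle, 19 of 29 were higher in Het-Met than in WT mice (median 0.07, against 0.02 over all genes). Past an unadjusted p of 0.05 were 1 higher and 3 lower (10.7% of all genes). Without vehicle-treated WT replicate 1, or without vehicle-treated Het-Met replicate 3, 16 of 29 were higher (median 0.04 in both). Under E2, 21 of 29 were lower in Het-Met than in WT mice (median -0.12, against 0.03 over all genes), and 4 of these were past an unadjusted p of 0.05 (11.7% of all genes, 5.36% in the lower direction). Without E2-treated Het-Met replicate 3, 17 of 29 were lower, 2 of them past that p, and the median was -0.03. The interaction was negative for 23 of 29 (median -0.09), as it was for Fkbp5, Sgk1 and Tsc22d3. Of the 29, 2 were past an unadjusted p of 0.05, against 5.42% of all genes. The median was -0.06 without E2-treated Het-Met replicate 3 (19 of 29 negative) and -0.19 without E2-treated Het-Met replicate 1 (25 of 29). The interaction was also negative for all 12 choroid plexus markers (median -3.35) and for 8 of 10 immediate-early genes (median -0.33, and from -0.55 to -0.09 with a library left out, the smallest without E2-treated Het-Met replicate 3), and their part in the target values was not tested. These comparisons share libraries, so they are not separate observations.

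Single genes of the list moved in different ways. Arid5b, which encodes a DNA-binding protein of chromatin, was at 30.8 and 29.2 CPM in E2-treated WT and at 22.0, 19.7 and 17.9 CPM in E2-treated Het-Met libraries (log2 fold change -0.59 ± 0.13, unadjusted p = 4.41e-04, limma adjusted p = 0.266). Under vehicle it was at 22.7 and 27.8 CPM in WT and at 16.6, 22.5 and 19.0 CPM in Het-Met libraries (-0.38 ± 0.13, adjusted p = 0.364). Sult1a1, a sulfotransferase that adds sulfate to phenols, was at 8.10 and 6.74 CPM in vehicle-treated WT, 10.5 and 11.2 CPM in E2-treated WT, 9.91, 9.33 and 10.5 CPM in vehicle-treated Het-Met, and 10.4, 9.87 and 9.77 CPM in E2-treated Het-Met libraries. The vehicle-treated WT libraries were the low ones (E2 in WT mice 0.52 ± 0.13, unadjusted p = 0.00147, adjusted p = 0.401). Fam107a, an actin-associated stress-response gene, was higher by 0.28 ± 0.09 with E2 in WT mice (adjusted p = 0.833), and Glul, the glutamine synthetase gene and the most abundant of the list per kb, was at 1346 to 1508 CPM with no difference past the threshold. Other genes, chosen after their values were seen, were Plin4 (-0.73 for Het-Met under E2, adjusted p = 0.342), Zbtb16 (-0.37, adjusted p = 0.378) and Klf9 (-0.23, adjusted p = 0.416). For each, E2-treated Het-Met replicate 3 was the lowest of its group. It was at 1.33 CPM against 3.03 and 2.67 for Plin4, 42.8 against 61.8 and 56.1 for Zbtb16, and 116 against 134 and 140 for Klf9.

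**Figure D3:**
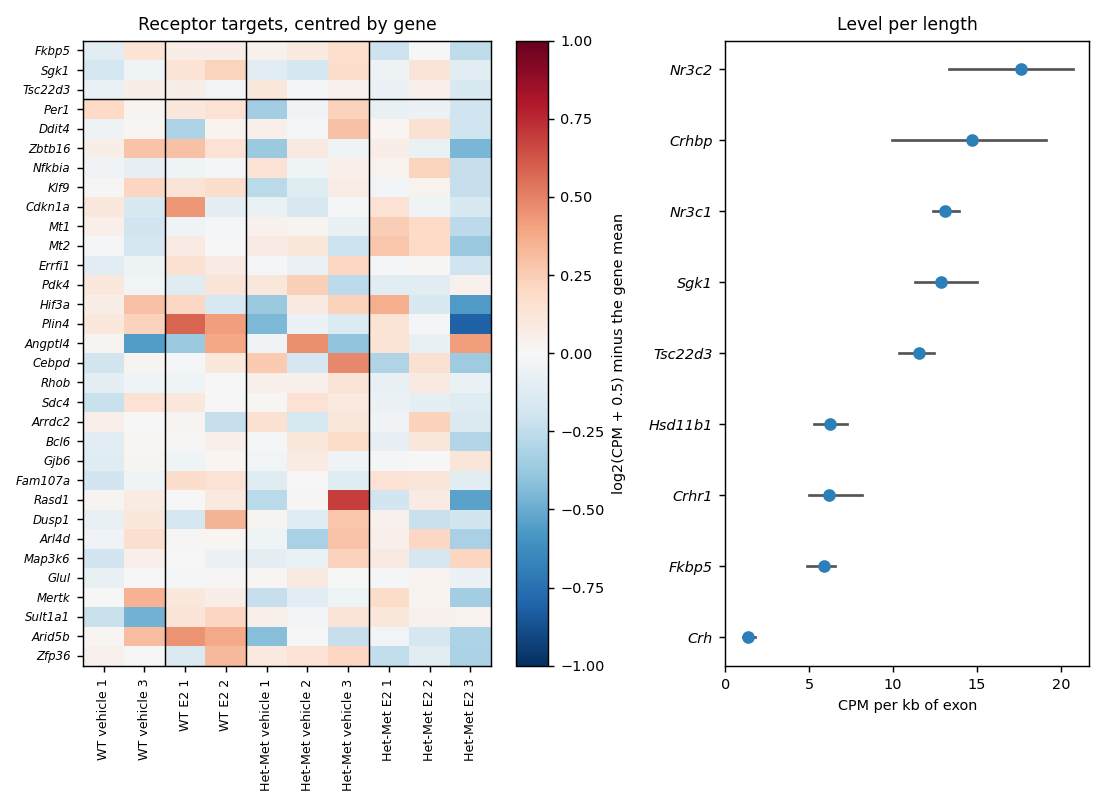
Left, log2(CPM + 0.5) of 32 receptor targets in each of the 10 libraries, centred on the mean of each gene (red higher, blue lower). Right, mean level per kb of exon of the 9 stress-axis genes (points) with the range over libraries (lines). E2-treated Het-Met replicate 3 is blue for many targets, and Arid5b is red in the E2-treated WT libraries.

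The library E2-treated Het-Met replicate 3 was low for many targets at once. Its sum over the list of 30 targets was 2841 CPM, against 2949 to 3227 CPM in the other 9 libraries. It also held the lowest Fkbp5, Nr3c2 and Tsc22d3 of the study. The sum of the 10 immediate-early genes was likewise lowest there, at 347 CPM against 384 to 648 CPM elsewhere. All 10 immediate-early genes were lower in Het-Met than in WT mice under vehicle (median log2 fold change -0.18), 1 of them past an unadjusted p of 0.05 (10.7% of all genes). Without vehicle-treated Het-Met replicate 2 it was 6 of 10 (median -0.09), and without vehicle-treated Het-Met replicate 3 all 10, with 4 past that p (median -0.40). Under E2 all 10 immediate-early genes were lower in Het-Met than in WT mice (median log2 fold change -0.55), 7 of them past an unadjusted p of 0.05 (5.36% of all genes in this direction) and none called. Without E2-treated Het-Met replicate 3 all 10 were still lower, with 3 past that p (median -0.32), and without E2-treated WT replicate 2, with 2 past it (median -0.39). Without E2-treated Het-Met replicate 1, 9 were past it and 2, Egr2 and Npas4, were called (median -0.70), among 45 calls over all genes. The most abundant, Egr3, was at 109 to 111 CPM in E2-treated Het-Met libraries and at 111 and 121 CPM in E2-treated WT libraries. The part of this in the target values was not tested.

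Hsd11b1 (chr1:193221634-193264075 on mm10, minus strand) encodes the enzyme that regenerates active corticosterone inside cells. Its levels were 23.1 and 27.6 CPM in vehicle-treated WT, 25.4 and 22.3 CPM in E2-treated WT, 30.8, 25.6 and 30.9 CPM in vehicle-treated Het-Met, and 27.9, 27.6 and 24.5 CPM in E2-treated Het-Met libraries. The genotypes overlapped under both treatments, with log2 fold changes of 0.20 ± 0.11 under vehicle and 0.16 ± 0.11 under E2. The mean over treatments was 0.18 ± 0.08 (unadjusted p = 0.0431, limma adjusted p = 0.286), with an exact permutation p of 0.07. Without vehicle-treated WT replicate 1 it was 0.12, and it stayed past an unadjusted p of 0.05 in 4 of the 10 fits that left out a library. It was not past that p with median-of-ratios, TMM or quantile scaling, or by edgeR or DESeq2.

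Of 11 other genes of corticosteroid handling, 7 passed the filter and none was called. Hsd11b2, which inactivates corticosterone, was among those filtered out. Abcb1a, the drug-efflux pump that carries glucocorticoids out at the blood-brain barrier and the most abundant per kb of this list, was at 33.5 and 31.9 CPM in vehicle-treated WT against 26.1 and 25.8 CPM in E2-treated WT libraries (-0.33 ± 0.14, unadjusted p = 0.0291, adjusted p = 1.00), beside an endothelial marker sum of 335 and 312 against 293 and 285 CPM; all 8 endothelial markers were lower with E2 in WT mice, 1 past an unadjusted p of 0.05 (4.04% of all genes), with Slc2a1 the most abundant at a mean of 86.1 CPM, and their part in the result was not tested. Srd5a1, the steroid reductase of the neurosteroid pathway, was higher in Het-Met mice under E2 by 0.42 ± 0.18 (adjusted p = 0.387), or by 0.22 without E2-treated Het-Met replicate 3. Akr1c14, the enzyme after it, had an interaction of 0.69 ± 0.28 (adjusted p = 0.809) at a level of only 1.21 to 2.30 CPM.

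Crhbp (chr13:95431371-95444924 on mm10, minus strand) gave the largest genotype difference of the 9 genes when averaged over treatments. It was at 28.4 and 29.1 CPM in vehicle-treated WT, 30.4 and 34.4 CPM in E2-treated WT, 26.2, 24.3 and 17.9 CPM in vehicle-treated Het-Met, and 25.7, 24.7 and 23.1 CPM in E2-treated Het-Met libraries. All 6 Het-Met libraries lay below all 4 WT libraries, and the share of all genes with this pattern was not computed. The log2 fold change was -0.34 ± 0.13 under vehicle (unadjusted p = 0.0191, limma adjusted p = 0.418), -0.40 ± 0.13 under E2 (unadjusted p = 0.00877, adjusted p = 0.342) and -0.37 ± 0.09 over treatments, a fold of 0.774 (unadjusted p = 0.0012, adjusted p = 0.126). Non-overlap with Het-Met lower was seen for 9.89% of all genes under vehicle and 14.7% under E2, and an unadjusted p under 0.05 with Het-Met lower over treatments for 7.27%.

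The exact permutation test of Crhbp over treatments gave p = 0.01, the smallest that its 100 arrangements allow. That p rests on the same separation of libraries, so it is no separate observation, and it is not adjusted for the number of genes. With each library left out in turn the difference over treatments stayed between -0.42 and -0.29, at unadjusted p of 2.90e-04 to 0.00996. Under vehicle it was -0.18, and no longer past an unadjusted p of 0.05, without vehicle-treated Het-Met replicate 3, the library at 17.9 CPM. For E2 the difference in Crhbp was 0.17 ± 0.14 in WT mice (95% interval -0.14 to 0.47), where both E2 libraries lay above both vehicle libraries, as for 15.6% of all genes, and 0.12 ± 0.12 in Het-Met mice (-0.13 to 0.37), where the groups overlapped. The interaction was -0.05 ± 0.19. By DESeq2 on the recovered reads Crhbp was past the call, at a log2 fold change of -0.39 (adjusted p = 0.00909, against 0.385 at the highest of the alternatives). The limma fold over treatments lies inside the limit of 1.3, so that value is no call at any p.

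Markers of neighbouring tissue and of cells that make CRHBP were looked at beside this. In bulk tissue, fewer cells of a type and less RNA per cell cannot be told apart. The 9 interneuron markers summed to 1281 and 1311 CPM in vehicle-treated WT, 1360 and 1348 CPM in E2-treated WT, 1407, 1343 and 1171 CPM in vehicle-treated Het-Met, and 1354, 1320 and 1292 CPM in E2-treated Het-Met libraries, with the low value in the library of the lowest Crhbp. Gad1, the GABA-synthesising enzyme, was the most abundant at a mean of 346 CPM, and 6 of the 9 were higher in Het-Met mice under vehicle and 3 of 9 under E2. The 6 markers of amygdala and cortex summed to 301 and 317, 288 and 275, 237, 262 and 208, and 276, 251 and 293 CPM in the same order of groups. All 6 were lower in Het-Met mice under vehicle (2 past an unadjusted p of 0.05, as were 10.7% of all genes) and 4 of 6 under E2 (1 past it, 11.7% of all genes), with Tshz2 the most abundant at a mean of 96.2 CPM and none at 0. One of the 6, Meis2, was also the second most alike of all genes to Crhbp in its pattern over libraries. Meis2 lies on chromosome 2, as does the knock-in gene Bdnf, and the part of this in its values was not tested. The part of these tissues in the Crhbp values was not tested.

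**Figure D4:**
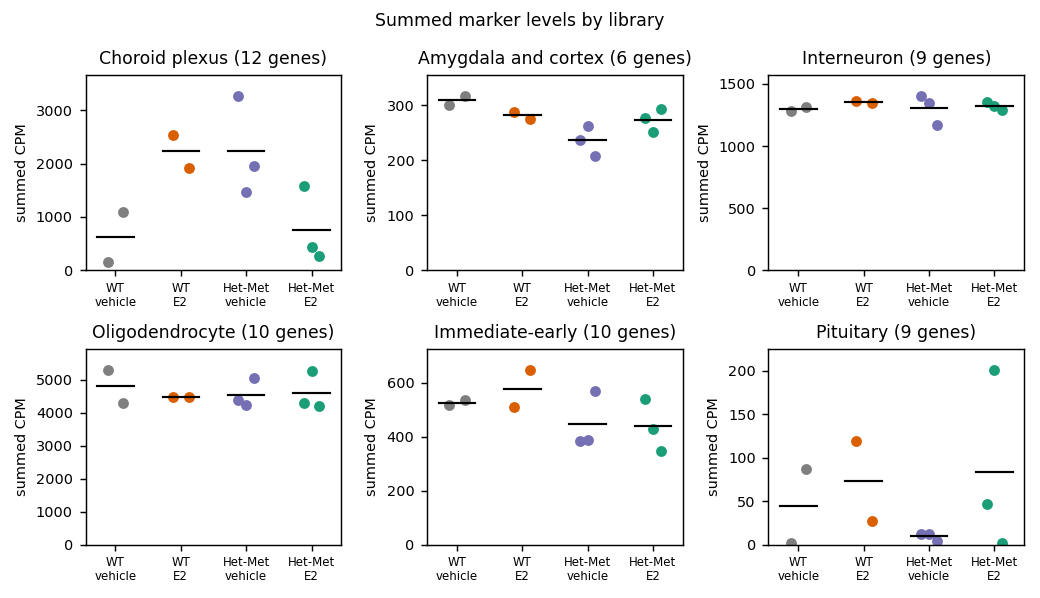
Summed CPM of 6 marker lists (vertical axes, from 0) in the 10 libraries by genotype and treatment; points are libraries and lines are group means. The group mean of the amygdala and cortex markers was lowest in vehicle-treated Het-Met mice, and choroid plexus markers ran from 151 to 3278 CPM.

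Crhr1 (chr11:104132855-104175523, plus strand) had E2 differences of opposite sign in the genotypes. It was at 20.0 and 13.4 CPM in vehicle-treated WT and at 12.7 and 12.2 CPM in E2-treated WT libraries (log2 fold change -0.39 ± 0.15, unadjusted p = 0.0237, limma adjusted p = 1.00). In Het-Met mice it was at 14.3, 14.6 and 14.6 CPM under vehicle and at 17.3, 15.5 and 17.8 CPM under E2 (0.21 ± 0.12, unadjusted p = 0.114, adjusted p = 0.931). The libraries separated in both genotypes, both E2 libraries being lower in WT (16.2% of all genes) and all 3 higher in Het-Met mice (5.15%). The interaction was 0.59 ± 0.20, a fold of 1.51 (unadjusted p = 0.00877, adjusted p = 0.557). Under E2, Crhr1 was higher in Het-Met than in WT mice by 0.42 ± 0.14 (unadjusted p = 0.00843, adjusted p = 0.342), with no overlap, as for 21.1% of all genes in that direction.

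A single library carried much of the WT side. Without vehicle-treated WT replicate 1, the library at 20.0 CPM, the E2 difference in WT mice was -0.10 and the interaction 0.31, neither past an unadjusted p of 0.05. Without vehicle-treated WT replicate 3 the interaction was 0.88, and this was the only setting that made it a call (limma adjusted p = 0.0461, against 1.00 at the highest of the alternatives). The difference between genotypes under E2 does not use these libraries, and it stayed between 0.38 and 0.48 with each library left out.

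The 12 choroid plexus markers had interactions of the sign opposite to that of Crhr1, and none was called. The 12 choroid plexus markers summed to 151 and 1087 CPM in vehicle-treated WT, 2544 and 1925 CPM in E2-treated WT, 3278, 1477 and 1949 CPM in vehicle-treated Het-Met, and 1571, 440 and 266 CPM in E2-treated Het-Met libraries, led by Ttr at a mean of 1300 CPM with none at 0. All 12 had a negative interaction at an unadjusted p under 0.05 (5.42% of all genes). Of the 6 excitatory neuron markers, led by Camk2a at a mean of 4690 CPM, 4 had a positive and 2 a negative interaction, with a median of 0.07. Slc17a6, a vesicular glutamate transporter high in subcortical neurons and named after its values were seen, had a positive interaction (1.02 ± 0.18, adjusted p = 0.052). The 5 tested markers of thalamus and hypothalamus, led by Rora, all had a positive interaction (median 0.18). With E2, 5 of 5 were higher in Het-Met mice (median 0.28) and 5 of 5 also in WT mice (median 0.10), where Crhr1 was lower. Under E2, 4 of 5 were higher in Het-Met than in WT mice (median 0.41), 2 of these past an unadjusted p of 0.05 (11.7% of all genes). Of the 6 amygdala and cortex markers 5 had a positive interaction (median 0.29). The part of these markers in the Crhr1 result was not tested.

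**Figure D5:**
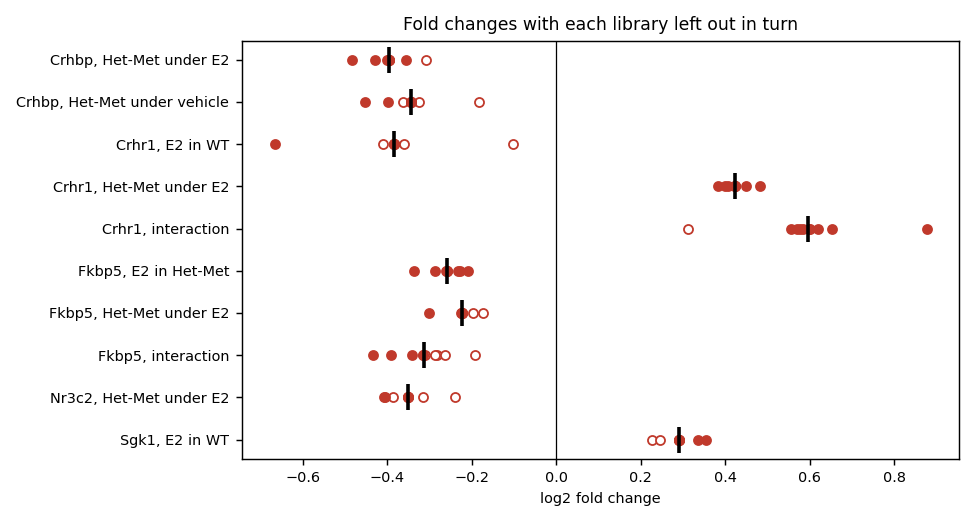
Log2 fold changes (horizontal axis) of the stress-axis genes past an unadjusted p of 0.05, over all libraries (black bars) and with each of the 10 libraries left out in turn (circles, filled where the p stayed under 0.05). Crhr1 for E2 in WT mice ran from -0.67 to -0.10, and Crhr1 under E2 from 0.38 to 0.48.

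Crh itself was the lowest of the 9 genes, its highest library at 1.71 times the lowest. It was at 1.53 and 1.73 CPM in vehicle-treated WT, 2.02 and 1.81 CPM in E2-treated WT, 2.04, 1.36 and 1.90 CPM in vehicle-treated Het-Met, and 1.86, 1.57 and 2.32 CPM in E2-treated Het-Met libraries. Both E2-treated WT libraries were above both vehicle-treated WT libraries, as for 15.6% of all genes, and the other groups overlapped. The log2 fold changes were 0.18 ± 0.22 for E2 in WT mice and 0.09 ± 0.18 in Het-Met mice, and the 95% interval of the first, -0.29 to 0.65, did not exclude a fold above 1.3 at this depth.

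Among 14 related peptide and receptor genes 7 passed the filter, and none was called. The CRH-like peptides Ucn, Ucn2 and Ucn3 did not pass it. Adcyap1r1, the receptor of the peptide PACAP and the most abundant per kb, was at 255 to 293 CPM. Pomc, the precursor of corticotropin in the pituitary, was at 1.62 and 11.3 CPM in vehicle-treated WT, 1.84 and 3.27 CPM in E2-treated WT, 1.38, 1.11 and 1.16 CPM in vehicle-treated Het-Met, and 2.89, 9.22 and 0.854 CPM in E2-treated Het-Met libraries (Het-Met under vehicle -1.55 ± 0.66, adjusted p = 0.44). Without vehicle-treated WT replicate 3, the library at 11.3 CPM, this difference was -0.31. The 9 pituitary markers summed to 1.99, 86.7, 119, 26.8, 12, 12.3, 4.03, 46.4, 201 and 1.57 CPM in the same order of libraries, led by Prl, and 2 of the 3 libraries with the most Pomc were among the 3 with the highest sums. Avp, vasopressin, was at 4.96 CPM in vehicle-treated Het-Met replicate 3 and at 0.185 to 0.897 CPM in the other libraries. Crhr2, the second CRH receptor, was at 2.44 to 5.24 CPM and differed by -0.43 ± 0.24 between genotypes under E2 (adjusted p = 0.488), or by -0.19 without E2-treated Het-Met replicate 2.

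Most coregulators of the steroid receptors were at lower values in Het-Met mice. None was called over all libraries, and 1 was called over treatments without vehicle-treated Het-Met replicate 2. Of 12 coregulators of steroid receptors, 10 were lower in Het-Met mice under vehicle (median log2 fold change -0.16, against 0.02 over all genes) and 10 under E2 (median -0.15, against 0.03), with 4 and 3 lower past an unadjusted p of 0.05 (10.7% and 11.7% of all genes in either direction) and none called. The summed level of the list was lowest in vehicle-treated Het-Met replicate 1, at 1307 CPM against 1456 to 1677 CPM in the other 9 libraries. Without that library 10 of 12 were still lower under vehicle (median -0.10), with 0 past an unadjusted p of 0.05, and without E2-treated WT replicate 2 there were 0 past it under E2. Over treatments 10 of 12 were lower, 7 of them past that p (4 to 10 with a library left out), against 7.27% of all genes in this direction, and none was called over all libraries. Nrip1, a corepressor, was at 22.9 and 25.1 CPM in vehicle-treated WT, 26.6 and 27.9 CPM in E2-treated WT, 13.7, 24.6 and 16.7 CPM in vehicle-treated Het-Met, and 19.9, 20.6 and 16.2 CPM in E2-treated Het-Met libraries (-0.53 ± 0.18 under E2, adjusted p = 0.343). The coactivator Ncoa1 was lower by the same comparison (-0.18 ± 0.07, adjusted p = 0.375), as was the acetyltransferase Ep300 under vehicle (-0.23 ± 0.10, adjusted p = 0.435, and -0.13 without vehicle-treated Het-Met replicate 1), and Smarca4, a chromatin remodeller and the most abundant per kb, differed by -0.12 ± 0.07 under E2 (adjusted p = 0.473). For E2 none of the 12 was past an unadjusted p of 0.05 in either genotype, and the count of higher genes in Het-Met mice went from 11 to 3 of 12 without vehicle-treated Het-Met replicate 1. Kdm1a and Sin3a, named after their values were seen, were the genes higher in Het-Met than in WT mice under both treatments. They had the shortest exon lengths of the list, 5179 and 5385 bases, against 6475 to 15642 bases for the others. The part of exon length in the coregulator values was not tested.

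Of 10 receptor chaperones, 6 were higher and 4 lower in Het-Met mice under either treatment, none was called and 1 was past an unadjusted p of 0.05 in a pairwise comparison, near the 11.7% of all genes past it under E2. Over treatments 2 of 10 were past it (16.6% of all genes). The gene past it under E2 was Bag1, a co-chaperone of HSP70 that binds the glucocorticoid receptor, at 89.96 and 89.4 CPM in E2-treated WT and 101, 107 and 113 CPM in E2-treated Het-Met libraries (0.25 ± 0.09, unadjusted p = 0.0107, limma adjusted p = 0.343). Hsp90ab1, the most abundant per kb, was at 1731 to 1898 CPM. Of 6 genes of mineralocorticoid-controlled sodium transport 4 passed the filter, and Scnn1a, a subunit of the epithelial sodium channel, was higher with E2 in Het-Met mice by 0.28 ± 0.11 (adjusted p = 0.865), while Atp1b1, a sodium pump subunit and the most abundant per kb, was at 1904 to 2192 CPM.

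Over all genes, the split of differences at an unadjusted p under 0.05 depended on scaling. Of 2503 such genes for genotype over treatments 56.2% were higher in Het-Met mice, and 41.8% of 2442 with median-of-ratios scaling; under vehicle the shares were 54.7% and 41.9%, and under E2 54.0% and 41.7%. None of the 14 values of stress-axis genes past an unadjusted p of 0.05 changed its sign under any of 21 alternatives. These values were picked for a small p and the alternatives reuse the same libraries, so a kept sign is no separate support.

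Patterns over the 10 libraries were compared by the root mean square difference of centred log2(CPM + 0.5). The genes most like Crhbp were Mthfd2 (0.09) and Meis2 (0.10), against a spread of Crhbp itself of 0.24, and those most like Crhr1 were Dgka and Col16a1 (both 0.08, against 0.21). Nr3c2 was most like Fam222a (0.07) and Lyst (0.08), Fkbp5 like Sowaha and Pm20d2 (both 0.06), Sgk1 like Plin3 and Nfil3 (both 0.06), and Hsd11b1 like Ip6k2 (0.06) and Rpp25l (0.07). For Nr3c1 they were Opcml and Smarca2 (both 0.02), for Tsc22d3 Cmtm6 and D10Wsu102e (both 0.04), and for Crh Serinc2 (0.08) and Poli (0.09). These genes were picked from 15081 for likeness, and none was another stress-axis gene.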

How the data were processed

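RNA from 10 vHpc pools was sequenced with 75-bp single-end reads from a strand-preserving kit. The authors used TopHat2 and the mm10 build, and deposited CPM per gene symbol, although the column headers say counts. Read trimming and filtering came before. The submitters' processing notes also name DESeq and DESeq2. The version, the annotation and the strand setting of the counting are not given in the sources used here. All values were whole multiples of the CPM of 1 read within 0.01 reads, so whole reads were recovered.

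The 9 genes and the lists were chosen with earlier results of these data known. limma 3.58.1 in R 4.3.3, with an intensity trend, was fitted to log2(CPM + 0.5) of the 15081 genes whose mean reached 0.5 CPM, as 1 model of 4 group means over the 10 libraries. Fold changes on this scale understate those of low genes. The interaction was the E2 effect in Het-Met minus that in WT mice. Exact permutations (two-sided) kept the other factor fixed. Per-kb levels used exon lengths of GENCODE. Values after ± are standard errors unless named. The fit was tested on simulated data.

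Named beside the 9 genes were, in each other list, the most abundant gene per kb and up to 3 with the smallest p, the most abundant marker of each list, and the 2 genes most alike each member. Alternatives were other pseudocounts, filters, scalings, edgeR 4.0.16 and DESeq2 1.42.0 on the recovered reads, a replicate block, and leaving out each library. The study's methods state 3 biological replicates per group, while the 10 libraries analysed here gave 2 per WT group and 3 per Het-Met group. Intervals cover no more than the spread between these libraries. The result of 1 marker gene is not reported here. Plots were drawn with matplotlib.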

Additional observations from a re-analysis of the deposited data

Results flagged for a closer look

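The effect of E2 differed between the genotypes at an unadjusted p under 0.05 for 2 of the 9 stress-axis genes, and for 4 of 32 with the genes named from the pathway lists (5.42% of all genes). Some of the named genes were picked for a small p, so the 4 are not a count over a fixed set, and none of these 4 was past the adjusted threshold in limma. Marker genes of other cell types and regions are not among the 4. For Crhr1 the E2 effect in Het-Met minus that in WT mice was 0.59 on the log2 scale (adjusted p = 0.557), with the E2 libraries all below the vehicle libraries in WT and all above them in Het-Met mice; without vehicle-treated WT replicate 1, at 20.0 CPM, the E2 difference in WT mice was -0.10 and the interaction 0.31, neither past an unadjusted p of 0.05. For Fkbp5 it was -0.31 (adjusted p = 0.818), with E2 lower in Het-Met mice and overlapping in WT mice. For Sult1a1 it was -0.51 (adjusted p = 0.581), with the vehicle-treated WT libraries below all others, and for Akr1c14 0.69 (adjusted p = 0.809) at under 2.31 CPM. No single library was tested for standing apart.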

How the results depend on the processing

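The count of stress-axis genes called was 0 in all 7 comparisons over all libraries, and it moved in 2 settings. DESeq2 on recovered reads called 1, Crhbp, for genotype over treatments, and leaving out vehicle-treated WT replicate 3 called 1, Crhr1, for the interaction, so that the interaction ran from 0 to 1 over the 10 settings with a library left out. edgeR on recovered reads called 0 in every comparison. Of the 14 values past an unadjusted p of 0.05, 3 kept it in all 10 left-out settings, and these were Fkbp5 for E2 in Het-Met mice, Crhr1 under E2 and Crhbp over treatments; the other 11 kept it in 3 to 9. Of the other 49 values, 28 changed sign in at least 1 of 21 alternatives. A pairwise fold change stays the same when a library of another group is left out, so those settings are no check of it. The fit with a replicate block called 0 stress-axis genes in each comparison, and with it the Fkbp5 interaction was -0.30 and no longer past an unadjusted p of 0.05. Deviations from the group means had correlations of -0.17 to 0.08 between libraries with the same number. Between libraries with different numbers they were -0.15 to 0.17. The 2 deviations of each WT group mirror each other, so these correlations cannot decide whether the number marks a batch or a pair. Fits to only the libraries compared give no value for the interaction or the averages.

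Counts over all genes were small and unstable. E2 in WT mice called 2 genes, 10 with the block, 14 by DESeq2 and 0 to 16 with a library left out. E2 in Het-Met mice called 0 (822 at an unadjusted p under 0.05) and 6 by DESeq2. Het-Met under vehicle called 1 and 38 by DESeq2, and under E2 4, with 0 to 52 in other fits and 0 to 45 with a library left out. The interaction called 11, with 18 under the block, 38 by DESeq2, and 0 to 71 with a library left out. E2 over genotypes called 1 and 5 by DESeq2, and genotype over treatments 4, 88 by DESeq2 and 1 to 86 with a library left out. Pools of 2 animals, 2 or 3 per group, and 27 to 49 reads of Crh per library limit what could be seen. The cause of these shifts was not tested.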

Other observations

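Marker lists of the other cell types in the tissue were measured in the same libraries. Oligodendrocyte markers, led by the myelin gene Mbp, summed to 4200 to 5305 CPM, astrocyte markers, led by the glutamate transporter Slc1a2, to 5720 to 7008 CPM, and microglia markers, led by Csf1r, to 447 to 521 CPM. All 9 microglia markers were higher in Het-Met than in WT mice under E2 (median log2 fold change 0.10), 1 of them past an unadjusted p of 0.05 (11.7% of all genes) and none called in limma. Meningeal markers, led by Ptgds, summed to 689 to 1107 CPM, and markers of thalamus and hypothalamus, led by Rora, to 73.2 to 116 CPM. In the blood list, the globin genes Hba-a1, Hba-a2, Hbb-bs and Hbb-bt were at exactly 0 in all 10 libraries. The erythroid gene Alas2 was at a mean of 2.92 CPM. The annotation and strand setting of the counting are not given, so these zeros do not show that blood was absent. The 9 hippocampal markers include markers of single fields, so they are not a measure of ventral tissue. Of these 1, the CA1 marker Fibcd1, was called for the interaction (-0.69 on the log2 scale, limma adjusted p = 0.033). This is the sign opposite to that of Crhr1, while 0.0729% of all genes were called. The interaction was negative for 7 of the 9 markers (median -0.22). Dcn of this list is also in the meningeal list.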
